A study of Homo sapiens with 12 samples.

Results

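The 40 genes described here are genes of glycolysis and of the response to hypoxia: glucose and lactate transporters, the enzymes that turn glucose into lactate, kinases that hold pyruvate back from the mitochondria, and the hypoxia-inducible factor (HIF) subunits with the HIF prolyl hydroxylases and other HIF targets. They were chosen by name and by function, without a threshold on any measured value. All 40 were among the 60617 gene identifiers of the data, and all 40 passed the filter on low counts that left 15692 genes to be tested.

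RNA-seq was performed on HCT 116p53-/- cells, a human colon carcinoma line from which p53 was deleted, and on uL3ΔHCT 116p53-/- cells, a line derived from it. The methods of the study describe the derived line as stably silenced for the ribosomal protein uL3, while by the sample labels RPL3, which encodes uL3, was knocked out in it. Each line was treated for 24 h with 5 nM actinomycin D (Act D), which at low doses blocks the transcription of ribosomal RNA, or with vehicle, and each of the 4 groups had 3 libraries, labelled as biological replicates. All 4 groups lack p53, the control cells included, and all uL3Δ-labelled libraries come from 1 derived line, so that the effect of uL3 and any other difference between these lines cannot be told apart. Nothing states that the replicates were independent cultures, so that the p-values measure the spread between these libraries, which may be technical.

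RPL3 itself was not lower where the labels say it was removed. Its level was 1138 ± 15.3 CPM (counts scaled to 1000000 per library; SD, n = 3) in HCT 116p53-/- cells, and in the uL3Δ-labelled libraries it was 1242 ± 82.5 CPM, both with vehicle, a log2 fold change of 0.13 (SE 0.08, edgeR adjusted p = 0.155). With Act D the log2 fold change was 0.12 (SE 0.08, edgeR adjusted p = 0.187). Therefore, the derived line is called here by its label. The markers of cell type also set the lines apart: with vehicle the summed level of 14 epithelial markers was 2716 to 2932 CPM in HCT 116p53-/- cells and 1647 to 1847 CPM in the uL3Δ-labelled libraries, and that of 13 mesenchymal markers was 62.0 to 74.8 CPM and 2738 to 2811 CPM. E-cadherin (CDH1), which defines epithelial cells, was at a mean of 66.8 CPM in the first and 0.445 CPM in the second, and the intestinal factor CDX2 at 14.8 and 0.177 CPM. Among the epithelial markers that went the other way were KRT18 (605 and 840.3 CPM) and CLDN3 (0.951 and 1.32 CPM). VIM, at 22.0 and 2237 CPM, made up most of the mesenchymal sum in the uL3Δ-labelled libraries. COL1A1 (7.5 and 4.14 CPM) and CDH2 (0.746 and 0.648 CPM) of that list were not higher. The 10 endothelial and blood markers summed to at most 9.94 CPM in any library. The epithelial and mesenchymal sums moved with every line difference reported below, and their part in it was not tested. Totals per library were between 10087925 and 21138886 counts. Replicate 1 of the uL3Δ-labelled libraries with Act D stood apart from its group: over all genes its counts gave a chi-square per gene of 123.66 and 71.47 against the other 2 libraries, which gave 14.58 between themselves, while pairs within the other groups gave 8.02 to 63.37. Without it the line difference was called for 35 of the 40 genes with vehicle (24 higher and 11 lower) and for 35 with Act D (21 higher and 14 lower), the response to Act D for 8 in HCT 116p53-/- cells (2 higher and 6 lower) and for 10 in the uL3Δ-labelled libraries (0 higher and 10 lower), and the interaction for 1.

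Cells take up glucose through GLUT transporters and trap it with hexokinase, and the enzymes of glycolysis then split it and convert it to pyruvate, which lactate dehydrogenase reduces to lactate or the pyruvate dehydrogenase complex passes to the mitochondria. When oxygen is scarce, the prolyl hydroxylases of the EGLN family no longer mark the HIF alpha subunits for destruction, and HIF binds to short hypoxia response elements near its target genes and raises their transcription. Many of the genes of glycolysis are such targets, as are VEGFA, CA9, ADM and BNIP3, and colon tumours are known for a high use of glucose. HIF alpha is controlled largely as a protein, which RNA does not show.

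The letters at the core of a hypoxia response element, ACGTG or GCGTG read on either strand, were looked for in the RefSeq promoter windows (GRCh38.p14), which run from 250 bases before to 50 bases after each transcription start. Of the 40 genes, 34 were matched to a window. BNIP3L, NDRG1, PFKFB2, SLC16A1, SLC2A3 and VEGFA were not matched. ACGTG or GCGTG was found in a window of 32 of the 34 genes (94.1%), beside 52.4% of 27305 genes with a window of this length, and ACGTG alone in 21 of the 34 (61.8%), beside 24.9%. Counted by window rather than by gene, ACGTG or GCGTG was found in 69.4% of 62 windows of these genes and in 48.4% of all 35116 windows, and ACGTG in 40.3% and 21.4%. A gene can have several windows, and the 62 windows of 34 genes are more per gene than the 35116 of 27305. ACGTG occurred in 12 of the 21 genes that were higher in the uL3Δ-labelled libraries with vehicle, in 6 of the 9 that were lower and in 3 of the 4 that were not called. A match of 5 letters is a description of the sequence and not evidence that HIF binds there. For 3 genes that moved far between the lines and carry ACGTG, the 250 bases before the start are shown 5′ to 3′ on the strand of the gene, with the ACGTG matches in capitals. In BNIP3 (chr10:131981924-131982173, minus strand) the letters match on both strands and overlap as CACGTG, 134 bases before the start. In ANGPTL4 (chr19:8363905-8364154, plus strand) the match lies on the opposite strand, so that it reads CACGT, 234 bases before the start. In HK2 (chr2:74833877-74834126, plus strand) both matches read CACGT, 229 and 48 bases before the start.
BNIP3: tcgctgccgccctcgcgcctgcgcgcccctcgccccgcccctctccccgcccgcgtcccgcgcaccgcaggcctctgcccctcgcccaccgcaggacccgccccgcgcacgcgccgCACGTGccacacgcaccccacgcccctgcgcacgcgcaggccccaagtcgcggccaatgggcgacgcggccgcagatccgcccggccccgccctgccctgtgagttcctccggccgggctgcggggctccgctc
ANGPTL4: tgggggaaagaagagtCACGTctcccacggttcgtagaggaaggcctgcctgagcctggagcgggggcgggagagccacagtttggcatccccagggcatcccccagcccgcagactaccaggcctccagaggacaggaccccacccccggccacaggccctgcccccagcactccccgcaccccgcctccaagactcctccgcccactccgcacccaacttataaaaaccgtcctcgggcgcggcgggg
HK2: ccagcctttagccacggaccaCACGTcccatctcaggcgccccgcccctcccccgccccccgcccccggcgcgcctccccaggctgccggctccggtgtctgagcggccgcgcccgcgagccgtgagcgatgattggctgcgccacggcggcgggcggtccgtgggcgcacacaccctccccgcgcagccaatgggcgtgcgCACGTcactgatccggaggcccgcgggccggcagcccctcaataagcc

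Between the lines most of these genes differed, and within 6 of the 9 roles the differences ran in both directions. With vehicle 35 of the 40 genes (87.5%) had a Benjamini-Hochberg adjusted p under 0.05 in the quasi-likelihood test of edgeR, where 71.3% of all genes tested had one. In the uL3Δ-labelled libraries 24 of them were higher and 11 lower. The median log2 fold change of the 40 genes was 0.42, beside -0.02 for all genes tested, and the median size of the change without its sign was 0.78 and 0.74. Higher calls made up 60.0% of the 40 genes, beside 35.1% of all genes, and lower calls 27.5%, beside 36.2%. A change of at least 1 on the log2 scale was found for 14 of the 40 genes, beside 37.7% of all genes. With Act D 38 of the 40 genes passed (95%, beside 70.4% of all genes), 23 higher (35.1% of all genes) and 15 lower (35.3%), with a median of 0.27 beside -0.02, and 14 changed by at least 1 on the log2 scale, beside 37.1%. The libraries of 1 line lay wholly above or below those of the other for 36 genes with vehicle (72.5% of all genes did) and for 38 genes with Act D (74.1%). The line difference was called in the same direction under both treatments for 34 genes, 23 higher and 11 lower, and in opposite directions for 0. Only PFKM was called under neither, and ENO1 with vehicle alone. The share of all genes called in the same direction under both treatments was not computed. With 71.3% of all genes called with vehicle and 70.4% with Act D, a call between the lines was shared by most genes tested. Whether the 40 genes were called more often than other genes of like abundance was not tested. When libraries were scaled by their size alone, the median of all genes moved from -0.02 to -0.26 and the calls with vehicle became 19 higher and 14 lower, with a median of 0.18 for the 40 genes. The calls with Act D became 17 higher and 15 lower by the same scaling, with a median of 0.03. Since whole cultures were sequenced, a larger number of cells that express a gene and more of its RNA per cell cannot be told apart.

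**Figure D1:**
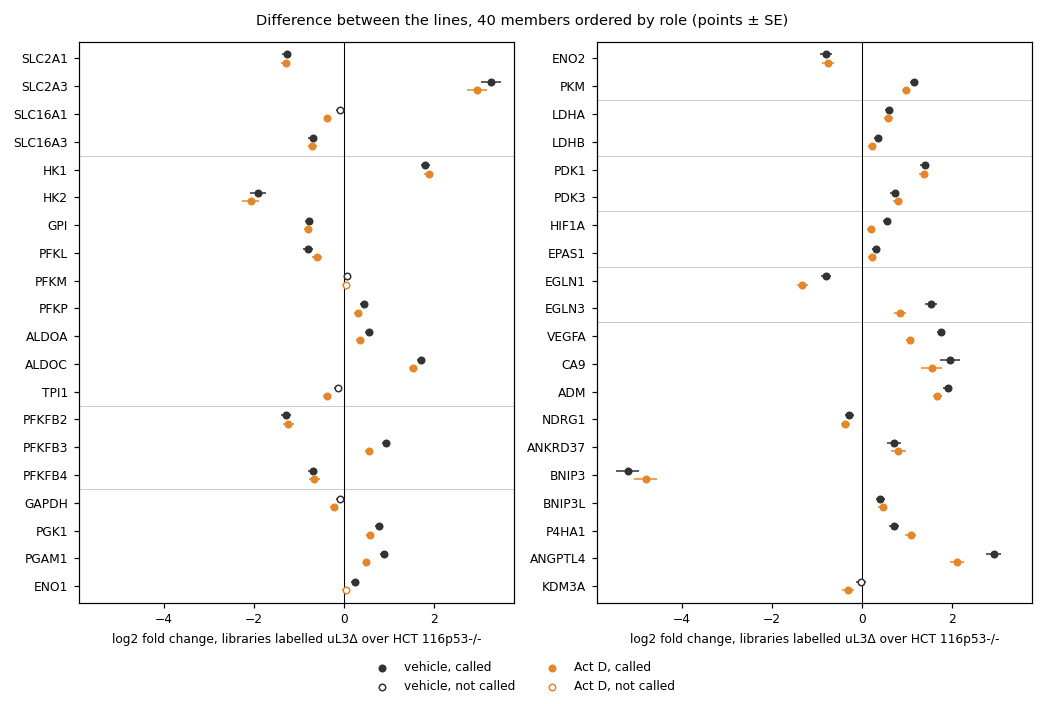
Log2 fold change of each of the 40 genes in the uL3Δ-labelled libraries over HCT 116p53-/- cells, with vehicle (black) and with Act D (orange), as points ± SE, in the order of their roles. Filled points passed an adjusted p under 0.05. BNIP3 lies far to the left at -5.21 and -4.81, and SLC2A3 (3.27 and 2.95) and ANGPTL4 (2.93 and 2.11) lie farthest to the right.

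The glucose transporters moved in opposite directions. SLC2A1 (chr1:42925353-42958893, minus strand, GRCh38 as for all positions of genes) encodes GLUT1, the widespread glucose transporter, and was at 331, 326 and 358 CPM in HCT 116p53-/- cells with vehicle and at 166, 127 and 129.6 CPM in the uL3Δ-labelled libraries. It was thus 2.40-fold lower (log2 fold change -1.27, SE 0.10, edgeR adjusted p = 1.71e-09), and the libraries of the lines did not overlap. SLC2A3 (chr12:7919230-8019007, minus strand) encodes GLUT3, a transporter of high affinity best known from neurons, and was at 1.88, 1.10 and 2.05 CPM in HCT 116p53-/- cells and at 13.1, 18.6 and 17.2 CPM in the uL3Δ-labelled libraries with vehicle. The difference was 9.64-fold (log2 fold change 3.27, SE 0.22, edgeR adjusted p = 3.93e-10). SLC2A3 rested on 16 to 34 counts per library in HCT 116p53-/- cells with vehicle, and RSEM gave its pseudogene SLC2A3P1 0 to 63 counts in the same libraries. With the counts of its 3 named pseudogenes added, the ratio of the means of the lines was 5.46 with vehicle and 3.65 with Act D. Per length, in TPM (transcripts scaled to 1000000 per library), SLC2A3 was 0.476% ± 0.187 (SD, n = 3) of the sum of both transporters in HCT 116p53-/- cells and 10.0% ± 2.96 in the uL3Δ-labelled libraries with vehicle, so that SLC2A1 remained the more abundant transcript. Of the transporters that export lactate, SLC16A3 (MCT4) was lower with vehicle (log2 fold change -0.70, SE 0.10, edgeR adjusted p = 7.86e-06), while SLC16A1 (MCT1) was called with Act D (-0.37, adjusted p = 0.000248) and not with vehicle (-0.10, adjusted p = 0.254, both from edgeR). By library size alone it was called with vehicle too (-0.34, adjusted p = 0.00145), and its interaction did not pass (-0.28, edgeR adjusted p = 0.133).

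A second exchange was seen at the first step of glycolysis. HK1 (chr10:69269984-69401884, plus strand), the hexokinase found in most tissues, was at 51.8, 62.5 and 64.4 CPM in HCT 116p53-/- cells and at 221, 206 and 201 CPM in the uL3Δ-labelled libraries with vehicle. HK2 (chr2:74834127-74893359, plus strand), the hexokinase that HIF induces and that many tumours express, was at 226, 209 and 292 CPM in the first and at 90.8, 47.9 and 54.9 CPM in the second. HK1 was therefore 3.51-fold higher (log2 fold change 1.81, SE 0.10, edgeR adjusted p = 2.83e-11) and HK2 3.78-fold lower (log2 fold change -1.92, SE 0.18, edgeR adjusted p = 3.87e-08), with no overlap between the lines for either. In TPM the share of HK2 in the sum of HK1 and HK2 was 74.1%, 67.7% and 73.9% in HCT 116p53-/- cells with vehicle and 20.7%, 13.0% and 14.5% in the uL3Δ-labelled libraries. With Act D it was 64.0%, 66.7% and 69.9% against 9.74%, 13.8% and 10.8%. The main hexokinase transcript was thus HK2 in 6 of 6 libraries of HCT 116p53-/- cells and HK1 in 6 of 6 labelled uL3Δ.

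The other enzymes of the upper part of the pathway divided as well. GPI, which isomerizes glucose 6-phosphate, fell by 0.78 on the log2 scale (SE 0.08, edgeR adjusted p = 1.64e-07) in the uL3Δ-labelled libraries with vehicle, and PFKL, the liver form of phosphofructokinase, by 0.80 (SE 0.11, edgeR adjusted p = 2.78e-06). PFKP, the platelet form, was higher (0.44, SE 0.09, edgeR adjusted p = 0.000438), a call that was lost when libraries were scaled by size alone (0.20, adjusted p = 0.129). Its mean with vehicle was 96.0 TPM in HCT 116p53-/- cells and 89.4 TPM in the uL3Δ-labelled libraries, so that PFKP was not higher on that scale. The share of PFKP in the TPM of the 3 phosphofructokinases was 60.8% ± 1.83 (SD, n = 3) in HCT 116p53-/- cells and 71.7% ± 2.42 in the uL3Δ-labelled libraries with vehicle, and that of PFKL 18.1% ± 1.34 and 9.53% ± 1.01. Of the aldolases, ALDOA, the main form, was higher by 0.56 (SE 0.09, edgeR adjusted p = 1.81e-05), and ALDOC, the form known from the brain, by 1.72 (SE 0.09, edgeR adjusted p = 1.03e-11), with 53.5, 58.3 and 56.9 CPM against 177, 207 and 172 CPM. ALDOC nevertheless made up only 4.22% ± 0.0659 and 9.07% ± 0.500 (SD, n = 3) of the aldolase TPM. TPI1, which interconverts the triose phosphates, was called with Act D (-0.38, adjusted p = 0.000714) and not with vehicle (-0.14, adjusted p = 0.166, both from edgeR). With vehicle it was called by library size alone (-0.37, adjusted p = 0.00323) and without replicate 3 of HCT 116p53-/- with vehicle (-0.22, adjusted p = 0.0311), and the interaction did not pass (-0.25, edgeR adjusted p = 0.255).

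PFKFB enzymes make and break fructose 2,6-bisphosphate, the strongest activator of phosphofructokinase, and their balance also shifted. PFKFB3 (chr10:6144934-6254644, plus strand), the form with the highest kinase activity, was at 58.6, 56.3 and 57.8 CPM in HCT 116p53-/- cells and at 123, 101 and 105 CPM in the uL3Δ-labelled libraries with vehicle (log2 fold change 0.93, SE 0.09, edgeR adjusted p = 2.16e-08). PFKFB2, known from the heart, was at 32.0, 28.4 and 27.2 CPM and at 12.6, 11.0 and 12.4 CPM (log2 fold change -1.29, SE 0.11, edgeR adjusted p = 1.42e-08). PFKFB4 was at 54.4, 58.9 and 62.2 CPM and at 39.8, 33.7 and 35.0 CPM (log2 fold change -0.70, SE 0.11, edgeR adjusted p = 2.61e-05). No library of the lines overlapped for any of the 3 genes. Accordingly, PFKFB4 held the largest mean share of PFKFB TPM in HCT 116p53-/- cells with vehicle, 47.7% ± 2.55 (SD, n = 3) beside 38.1% ± 0.982 for PFKFB3, and PFKFB3 in the uL3Δ-labelled libraries, 61.4% ± 1.26 beside 34.2% ± 1.24 for PFKFB4.

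In the lower part of glycolysis, of 6 genes, 4 were higher in the uL3Δ-labelled libraries, 1 lower and 1 not called with vehicle (beside 35.1% and 36.2% of all genes higher and lower), and 3 were higher, 2 lower and 1 not called with Act D. PKM, which encodes pyruvate kinase and therefore the last step to pyruvate, was at 1609, 1619 and 1388 CPM in HCT 116p53-/- cells and at 3560.2, 3503 and 3283 CPM in the uL3Δ-labelled libraries (log2 fold change 1.16, SE 0.09, edgeR adjusted p = 4.24e-09). PGAM1 and PGK1, which handle the phosphoglycerates, were higher by 0.88 (SE 0.08, edgeR adjusted p = 3.47e-08) and by 0.77 (SE 0.08, edgeR adjusted p = 2.23e-07). ENO2, the neuronal enolase, was the member that fell, from 43.8, 39.6 and 54.2 CPM to 28.1, 26.0 and 25 CPM (log2 fold change -0.80, SE 0.13, edgeR adjusted p = 1.80e-05), and it made up 1.87% ± 0.496 and 0.906% ± 0.0499 (SD, n = 3) of the enolase TPM. ENO1, the main enolase, was higher by 0.24 (SE 0.09, edgeR adjusted p = 0.0243), a call that was lost without replicate 3 of HCT 116p53-/- with vehicle or without replicate 2 of the uL3Δ-labelled libraries with vehicle (adjusted p up to 0.119), and by library size alone (0.00). GAPDH, often taken as a constant reference, did not pass with vehicle (-0.08, adjusted p = 0.473), and with Act D it was lower by 0.23 (adjusted p = 0.039, both from edgeR), which was lost without replicates 1 or 2 of HCT 116p53-/- with Act D or replicate 2 of the uL3Δ-labelled libraries with Act D (adjusted p up to 0.142). By library size alone GAPDH was called with vehicle too (-0.32, edgeR adjusted p = 0.0155). Its mean with vehicle was 2750 TPM in HCT 116p53-/- cells and 1868 TPM in the uL3Δ-labelled libraries. For ENO1 these means were 964 and 812 TPM, so that ENO1 was not higher on that scale.

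Summed over the 17 enzymes from hexokinase to lactate dehydrogenase, the level was 13202 to 14394 CPM in HCT 116p53-/- cells and 17252 to 18647 CPM in the uL3Δ-labelled libraries with vehicle. With Act D the sums were 14242 to 15523 CPM and 15816 to 17890.1 CPM. The sums did not overlap between the lines under either treatment on this scale. The other scales, chosen after seeing the data, gave another picture. In CPM by library size alone the sums overlapped under both treatments, at 15005 to 16341 and 16012 to 17663 CPM with vehicle and at 14591 to 16295 and 13378 to 17063 CPM with Act D. In TPM the direction turned: the sums were 6991 to 8027 and 5734 to 7326 TPM with vehicle, which overlapped, and 6964 to 8307 and 5438 to 6425 TPM with Act D, where the uL3Δ-labelled libraries lay below. The lactate dehydrogenases were both higher with vehicle, LDHA by 0.60 (SE 0.09, edgeR adjusted p = 5.80e-06) and LDHB by 0.35 (SE 0.09, edgeR adjusted p = 0.00234), and the call for LDHB was lost when libraries were scaled by size alone (0.11, adjusted p = 0.355). With Act D the difference of LDHB was 0.23 (edgeR adjusted p = 0.035), which was lost under 8 of 20 alternatives and turned to -0.02 by library size alone. The means of LDHB with vehicle were 519 TPM in HCT 116p53-/- cells and 467 TPM in the uL3Δ-labelled libraries, so that LDHB was not higher on that scale.

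The genes that govern the entry of pyruvate into the mitochondria also divided. PDK1 (chr2:172555373-172608669, plus strand), a HIF target that inactivates pyruvate dehydrogenase by phosphorylation, was at 36.9, 32.8 and 39.1 CPM in HCT 116p53-/- cells and at 90.9, 100.2 and 96.4 CPM in the uL3Δ-labelled libraries with vehicle, 2.64-fold higher (log2 fold change 1.4, SE 0.10, edgeR adjusted p = 3.94e-10). PDK3 was higher by 0.73 (SE 0.10, edgeR adjusted p = 3.06e-06). Of 11 genes of the pyruvate dehydrogenase complex, its regulators and the pyruvate carriers that were listed beside these members, 5 were higher, 5 lower and 1 not called with vehicle (90.9% called, beside 71.3% of all genes). PDK4, another kinase of the complex, was at 0.660 ± 0.342 and 18.8 ± 6.70 CPM (SD, n = 3; log2 fold change 4.85, SE 0.34, edgeR adjusted p = 4.44e-10). PDP1 and PDP2, the phosphatases that reactivate the complex, went the other way. PDP1 was at 908 ± 80.8 and 44.8 ± 6.85 CPM (SD, n = 3; log2 fold change -4.34, SE 0.12, edgeR adjusted p = 1.61e-15) and PDP2 at 40.5 ± 5.11 and 8.76 ± 0.860 CPM (SD, n = 3; log2 fold change -2.22, SE 0.12, edgeR adjusted p = 1.46e-11). The 3 kinases named were thus higher and both phosphatases lower in the uL3Δ-labelled libraries. PDK4 and the phosphatases were named by their p, so that this does not describe kinases that were not named. With Act D the differences were 1.37 for PDK1, 0.80 for PDK3, 5.38 for PDK4, -3.87 for PDP1 and -2.04 for PDP2 on the log2 scale. Subunits of the complex itself moved both ways with vehicle. PDHX was higher by 0.80 (SE 0.09, edgeR adjusted p = 4.16e-07) and PDHA1 by 0.74 (SE 0.09, edgeR adjusted p = 7.12e-07). DLD was lower by 0.31 (SE 0.08, edgeR adjusted p = 0.00158).

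**Figure D2:**
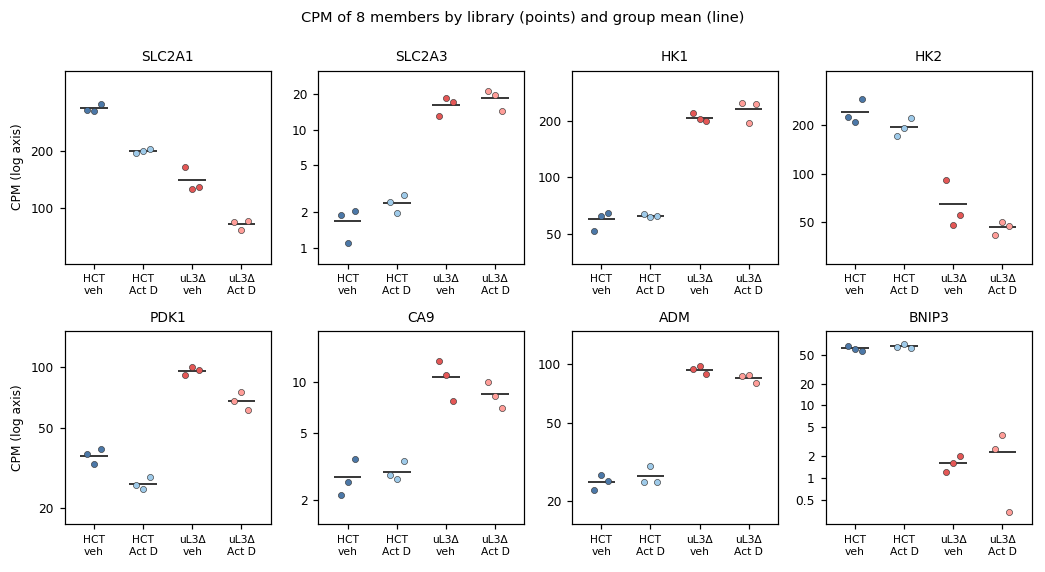
CPM of 8 members in each library (points; log axis, whose range differs between panels) with the group mean (line). SLC2A1, HK2 and BNIP3 are lower and SLC2A3, HK1, PDK1, CA9 and ADM higher in all 6 uL3Δ-labelled libraries than in the HCT 116p53-/- libraries of the same treatment.

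In CPM both HIF alpha subunits were higher with vehicle in the uL3Δ-labelled libraries, while the hydroxylases that mark them went in opposite directions. HIF1A (chr14:61695513-61748259, plus strand) was at 177, 161 and 165 CPM in HCT 116p53-/- cells and at 238, 242 and 259 CPM in the uL3Δ-labelled libraries with vehicle, 1.47-fold higher (log2 fold change 0.55, SE 0.08, edgeR adjusted p = 7.50e-06). EPAS1, which encodes HIF-2 alpha, was at 29.8, 33.5 and 30.7 CPM and at 43.1, 35.7 and 39.1 CPM (log2 fold change 0.32, SE 0.09, edgeR adjusted p = 0.00405). Neither gene overlapped between the lines with vehicle. The call for EPAS1 was lost by library size alone and with the effective gene length as an offset (log2 fold change down to 0.09, adjusted p up to 0.473). In TPM the means with vehicle were 34.3 and 36.8 for HIF1A and 6.58 and 5.57 for EPAS1, so that EPAS1 was not higher on that scale. With Act D the differences were 0.19 for HIF1A (SE 0.08, edgeR adjusted p = 0.0458) and 0.23 for EPAS1 (SE 0.09, edgeR adjusted p = 0.031). These calls were lost under 14 and 10 of the 20 alternatives, among them scaling by library size alone, which turned them to -0.06 and -0.01. For HIF1A, leaving out any of 9 libraries raised the adjusted p above the threshold (to at most 0.331), namely replicates 2 and 3 of HCT 116p53-/- with vehicle, each replicate of HCT 116p53-/- with Act D, and replicates 2 and 3 of both groups labelled uL3Δ. For EPAS1 any of the 6 Act D libraries did so (to at most 0.112). The share of EPAS1 in the TPM of both subunits was 16.2% ± 1.72 and 13.1% ± 0.957 (SD, n = 3) with vehicle and was the only 1 of 16 isozyme shares that did not pass the exact test between the lines given below.

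EGLN1 (chr1:231363751-231422287, minus strand) encodes PHD2, the main oxygen sensor of the HIF pathway. It was at 119, 106 and 121 CPM in HCT 116p53-/- cells and at 72.1, 61.8 and 65.4 CPM in the uL3Δ-labelled libraries with vehicle (log2 fold change -0.80, SE 0.12, edgeR adjusted p = 7.03e-06), and at 87.7, 123 and 104 CPM and at 36.6, 47.1 and 42.0 CPM with Act D (log2 fold change -1.33, SE 0.12, edgeR adjusted p = 2.21e-08). EGLN3 (chr14:33924227-34462774, minus strand) encodes PHD3, a hydroxylase that HIF itself induces, and moved in the opposite direction. It was at 7.19, 6.89 and 6.16 CPM and at 22.7, 18.7 and 17.6 CPM with vehicle (log2 fold change 1.54, SE 0.13, edgeR adjusted p = 9.02e-09), and at 10.0, 10.0 and 10.6 CPM and at 17.0, 17.8 and 20.8 CPM with Act D (log2 fold change 0.85, SE 0.13, edgeR adjusted p = 1.53e-05). Per length, EGLN3 made up 7.37% ± 1.29 (SD, n = 3) of the TPM of both hydroxylases in HCT 116p53-/- cells with vehicle and 10.2% ± 0.382 with Act D, and 23.9% ± 3.37 and 34.6% ± 1.37 in the uL3Δ-labelled libraries. EGLN1 was the more abundant of both genes in 12 of 12 libraries.

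Among the other HIF targets 7 of 10 were higher, 2 lower and 1 not called with vehicle in the uL3Δ-labelled libraries (70% and 20%, beside 35.1% and 36.2% of all genes). VEGFA (chr6:43770184-43786487, plus strand), the main growth factor of blood vessels, was at 41.2, 40.8 and 42.8 CPM in HCT 116p53-/- cells and at 157, 129.7 and 136 CPM in the uL3Δ-labelled libraries (log2 fold change 1.76, SE 0.09, edgeR adjusted p = 5.81e-12). ANGPTL4 (chr19:8363289-8374370, plus strand), a secreted inhibitor of lipoprotein lipase, was at 19.5, 18.6 and 23.4 CPM and at 201, 149 and 121 CPM (log2 fold change 2.93, SE 0.16, edgeR adjusted p = 1.59e-11). ADM, the vasodilator peptide adrenomedullin, was at 22.8, 27.0 and 25.3 CPM and at 94.1, 97.8 and 89.2 CPM (log2 fold change 1.91, SE 0.10, edgeR adjusted p = 6.42e-12). All 3 were between 3.38-fold and 7.64-fold higher, and no library of the lines overlapped. CA9, a carbonic anhydrase that is widely used as a hypoxia marker, was low in both lines. Its values were 2.14, 2.55 and 3.50 CPM and 13.4, 11.1 and 7.70 CPM (log2 fold change 1.96, SE 0.23, edgeR adjusted p = 5.35e-07), from 33 to 58 counts per library in HCT 116p53-/- cells and from 114 to 221 in the uL3Δ-labelled libraries. With Act D the differences were 1.07 for VEGFA, 2.11 for ANGPTL4, 1.67 for ADM and 1.55 for CA9 on the log2 scale, each with an edgeR adjusted p of at most 1.54e-05.

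BNIP3 went against these targets. It lies at chr10:131967684-131981967, minus strand, and encodes a mitochondrial protein that HIF induces and that acts in mitophagy. It was at 66.6, 59.2 and 56.3 CPM in HCT 116p53-/- cells with vehicle and at 62.7, 69.5 and 62.5 CPM with Act D. In the uL3Δ-labelled libraries it was at 1.2, 1.6 and 2.03 CPM with vehicle and at 2.55, 3.88 and 0.348 CPM with Act D. The difference was 37.1-fold with vehicle (log2 fold change -5.21, SE 0.26, edgeR adjusted p = 4.71e-12) and 28.1-fold with Act D (log2 fold change -4.81, SE 0.26, edgeR adjusted p = 2.11e-11), the largest among the 40 genes, and its size rests on 3 to 35 counts per uL3Δ-labelled library against 777 to 1028 in HCT 116p53-/- cells. With the counts of its 44 named pseudogenes added, 0 to 9 per library and chosen as a check after seeing the data, the ratio of the means of the lines was 33.6 with vehicle and 26.7 with Act D. Its homologue BNIP3L (NIX), also a mitophagy receptor, was at 75.4, 58.0 and 68.1 CPM and at 81.5, 93.9 and 92.2 CPM with vehicle (log2 fold change 0.41, SE 0.10, edgeR adjusted p = 0.00125), a call that was lost when libraries were scaled by size alone (0.16, adjusted p = 0.188). With Act D its difference of 0.46 (edgeR adjusted p = 0.000554) was lost by library size alone and with the length offset, where it fell to just under 0. The share of BNIP3L in the TPM of both was 46.6% ± 5.81 (SD, n = 3) in HCT 116p53-/- cells and 97.8% ± 0.109 in the uL3Δ-labelled libraries with vehicle. P4HA1, a collagen prolyl hydroxylase, and ANKRD37 were higher by 0.71 each (SE 0.11 and 0.16, edgeR adjusted p = 2.26e-05 and 0.000608). NDRG1 was lower by 0.28 (SE 0.10, edgeR adjusted p = 0.0211), which was lost without replicate 3 of either line with vehicle (adjusted p up to 0.0804), and KDM3A, a histone demethylase, was not called (-0.02, edgeR adjusted p = 0.905).

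Isozyme shares were tested within each library, where the scaling between libraries has no part. The term is used here also for the transporters, the HIF alpha subunits and the mitophagy receptors, which are not enzymes. With 3 libraries against 3, an exact permutation test cannot give less than p = 0.1, so the lines were also compared over all 12 libraries with the labels permuted within each treatment, where the smallest p is 0.005. In this exact two-sided permutation test 15 of the 16 shares differed between the lines after Benjamini-Hochberg adjustment, with adjusted p = 0.008 for HK2, SLC2A3, PFKL, PFKP, PFKFB2, PFKFB3, ALDOC, ENO2, EGLN3 and BNIP3L. PDK3 had the highest adjusted p among the 15, 0.032, with shares of 23.6% ± 4.16 and 18.4% ± 4.44 (SD, n = 3) of the TPM of PDK1 and PDK3 with vehicle. The test was chosen after the data had been seen.

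**Figure D3:**
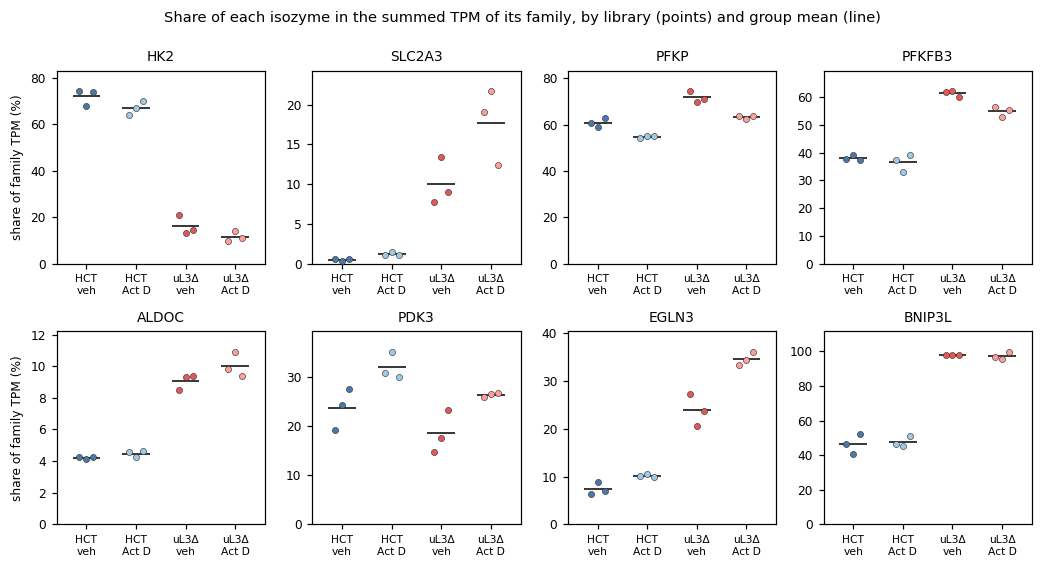
Share of 8 genes in the summed TPM of their family in each library (points, in percent, from 0) with the group mean (line). HK2 falls from a mean of 71.9% to 16.1% between the lines with vehicle, and BNIP3L rises from 46.6% to 97.8%.

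Act D changed few of these genes. In HCT 116p53-/- cells 7 of the 40 genes passed the test (17.5%, beside 18.7% of all genes), 2 higher (7.59% of all genes) and 5 lower (11.1%). In the uL3Δ-labelled libraries 8 passed (20%, beside 11.9% of all genes), 0 higher (3.51%) and 8 lower (8.4%). The libraries did not overlap for 16 genes in the first (38.2% of all genes did not) and for 17 in the second (27.6%). No change reached 1 on the log2 scale (2.89% and 1.29% of all genes passed with such a change), the median was 0.08 and -0.10 beside 0.02 and 0.03 for all genes, and 30 genes passed in neither line. How the 7 calls in HCT 116p53-/- cells divided depended on the scaling: 4 higher and 6 lower with DESeq2, 4 and 3 with upper-quartile scaling, and 1 and 8 by library size alone. Of the 17 enzymes from hexokinase to lactate dehydrogenase, PFKP was the 1 that passed in either line.

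The 5 genes that fell in both lines were SLC2A1, PDK1, PFKFB3, PFKP and PFKFB4. Of the same families SLC2A3, PFKL, PFKM, PFKFB2 and PDK3 passed in neither line. The share of all genes that fell in both lines was not computed. Among these calls in HCT 116p53-/- cells, only that of SLC2A1 held under every alternative. SLC2A1 was at 331, 326 and 358 CPM with vehicle and at 197, 202 and 206 CPM with Act D in HCT 116p53-/- cells, a fall of 1.68-fold (log2 fold change -0.75, SE 0.10, edgeR adjusted p = 2.82e-05). It was at 166, 127 and 129.6 CPM and at 84.6, 76.2 and 85.1 CPM in the uL3Δ-labelled libraries, a fall of 1.72-fold (log2 fold change -0.78, SE 0.10, edgeR adjusted p = 5.47e-05). The difference between these responses was -0.03 on the log2 scale (95% interval -0.32 to 0.26, edgeR adjusted p = 0.931). SLC2A1 therefore showed the largest fall of the 40 genes in each line, and its lowest level was in the Act D uL3Δ-labelled libraries.

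PDK1 fell from 36.9, 32.8 and 39.1 CPM to 25.8, 24.8 and 28.3 CPM in HCT 116p53-/- cells (log2 fold change -0.47, SE 0.10, edgeR adjusted p = 0.00315). It fell from 90.9, 100.2 and 96.4 CPM to 67.7, 74.9 and 60.8 CPM in the uL3Δ-labelled libraries (log2 fold change -0.50, SE 0.09, edgeR adjusted p = 0.00169). The first call was lost when the effective gene length entered as an offset (adjusted p = 0.206). PFKFB3 fell from 58.6, 56.3 and 57.8 CPM to 48.6, 45.0 and 48.7 CPM (log2 fold change -0.28, SE 0.09, edgeR adjusted p = 0.0317) and, in the uL3Δ-labelled libraries, from 123, 101 and 105 CPM to 69.8, 70.7 and 67.5 CPM (log2 fold change -0.66, SE 0.09, edgeR adjusted p = 7.16e-05). PFKP fell from 279, 290.3 and 281 CPM to 230.2, 244 and 217 CPM (log2 fold change -0.30, SE 0.09, edgeR adjusted p = 0.0355) and from 439, 370.2 and 342 CPM to 304, 257 and 293 CPM (log2 fold change -0.43, SE 0.09, edgeR adjusted p = 0.00574). For both genes no library with Act D overlapped the vehicle libraries of the same line, but in HCT 116p53-/- cells each call was lost when any of its 6 libraries, or replicate 3 of the uL3Δ-labelled libraries with Act D, was left out (adjusted p up to 0.135 for PFKFB3 and 0.166 for PFKP). PFKFB4 fell from 54.4, 58.9 and 62.2 CPM to 38.1, 44.8 and 46.2 CPM (log2 fold change -0.44, SE 0.11, edgeR adjusted p = 0.00998), which was lost without replicate 1 of HCT 116p53-/- with Act D (adjusted p = 0.0715). In the uL3Δ-labelled libraries it fell from 39.8, 33.7 and 35.0 CPM to 32.1, 24.3 and 24.6 CPM (log2 fold change -0.41, SE 0.12, edgeR adjusted p = 0.0334), which was lost without replicate 1 with vehicle or replicates 2 or 3 with Act D (adjusted p up to 0.114), and with upper-quartile scaling, the replicate block, the length offset and a fit of only the 2 groups compared.

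**Figure D4:**
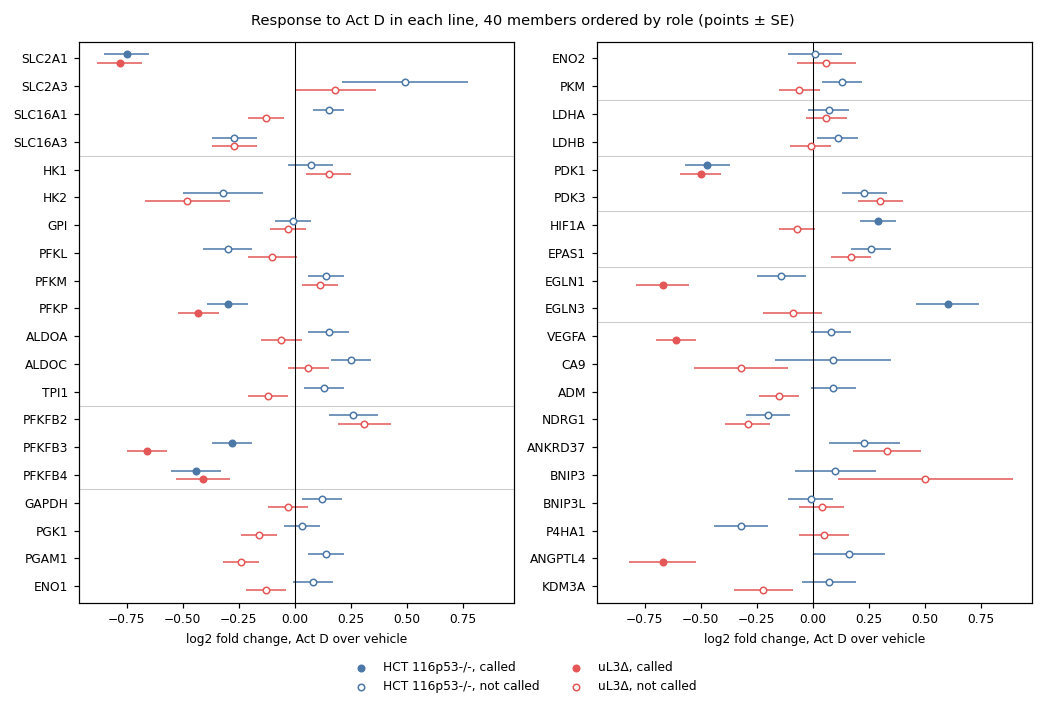
Log2 fold change of each of the 40 genes with Act D over vehicle in HCT 116p53-/- cells (blue) and in the uL3Δ-labelled libraries (red), as points ± SE, in the order of their roles. Filled points passed an adjusted p under 0.05. SLC2A1 lies farthest to the left in both lines (-0.75 and -0.78), and 30 of the 40 genes have open points in both.

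Act D also moved isozyme shares, of which 5 of 16 passed the exact two-sided permutation test with labels permuted within each line (adjusted p = 0.016 each). PFKM rose from 21.1% ± 1.94 to 28.1% ± 0.733 (SD, n = 3) of phosphofructokinase TPM in HCT 116p53-/- cells and from 18.7% ± 1.65 to 25.5% ± 0.906 in the uL3Δ-labelled libraries, while PFKP fell from 60.8% to 54.9% and from 71.7% to 63.4%. PFKFB2 rose from 14.2% ± 2.43 to 23.7% ± 2.84 (SD, n = 3) of PFKFB TPM and from 4.40% ± 0.0750 to 9.20% ± 2.45. PDK3 rose from 23.6% to 31.9% and from 18.4% to 26.3% of the TPM of PDK1 and PDK3, and EGLN3 was the fifth. In edgeR's test of each gene neither PFKM, PFKFB2 nor PDK3 passed for Act D in either line (adjusted p from 0.0542 to 0.407), while PFKP, PFKFB3, PFKFB4 and PDK1 of the same families fell in both lines.

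HIF1A and EGLN3 were the 2 genes that rose with Act D in HCT 116p53-/- cells. HIF1A was at 177, 161 and 165 CPM with vehicle and at 208, 189 and 219 CPM with Act D (log2 fold change 0.29, SE 0.08, edgeR adjusted p = 0.017), a call that was lost without replicates 2 or 3 of the vehicle group or replicates 1 or 3 of the Act D group (adjusted p up to 0.0838), or by library size alone (0.19, adjusted p = 0.144). EGLN3 was at 7.19, 6.89 and 6.16 CPM and at 10.0, 10.0 and 10.6 CPM (log2 fold change 0.60, SE 0.14, edgeR adjusted p = 0.00545), and this call was lost when the effective gene length entered as an offset (0.20, adjusted p = 0.472). The groups did not overlap for either gene. Neither passed in the uL3Δ-labelled libraries, where the log2 fold change was -0.07 for HIF1A (edgeR adjusted p = 0.622) and -0.09 for EGLN3 (edgeR adjusted p = 0.722). EPAS1 changed by 0.26 in HCT 116p53-/- cells (SE 0.09, edgeR adjusted p = 0.0518) and by 0.17 in the uL3Δ-labelled libraries (SE 0.09, edgeR adjusted p = 0.25).

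EGLN1, VEGFA and ANGPTL4 passed with Act D in the uL3Δ-labelled libraries and not in HCT 116p53-/- cells. EGLN1 was at 72.1, 61.8 and 65.4 CPM with vehicle and at 36.6, 47.1 and 42.0 CPM with Act D (log2 fold change -0.67, SE 0.12, edgeR adjusted p = 0.0013). VEGFA was at 157, 129.7 and 136 CPM and at 96.3, 87.7 and 92.9 CPM (log2 fold change -0.61, SE 0.09, edgeR adjusted p = 0.000157). ANGPTL4 was at 201, 149 and 121 CPM and at 101, 90.3 and 105 CPM (log2 fold change -0.67, SE 0.15, edgeR adjusted p = 0.00533). The Act D libraries lay below the vehicle libraries for all 3 genes. In HCT 116p53-/- cells the same genes changed by -0.14 (adjusted p = 0.441), 0.08 (adjusted p = 0.586) and 0.16 (adjusted p = 0.551, all from edgeR), and their libraries overlapped.

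**Figure D5:**
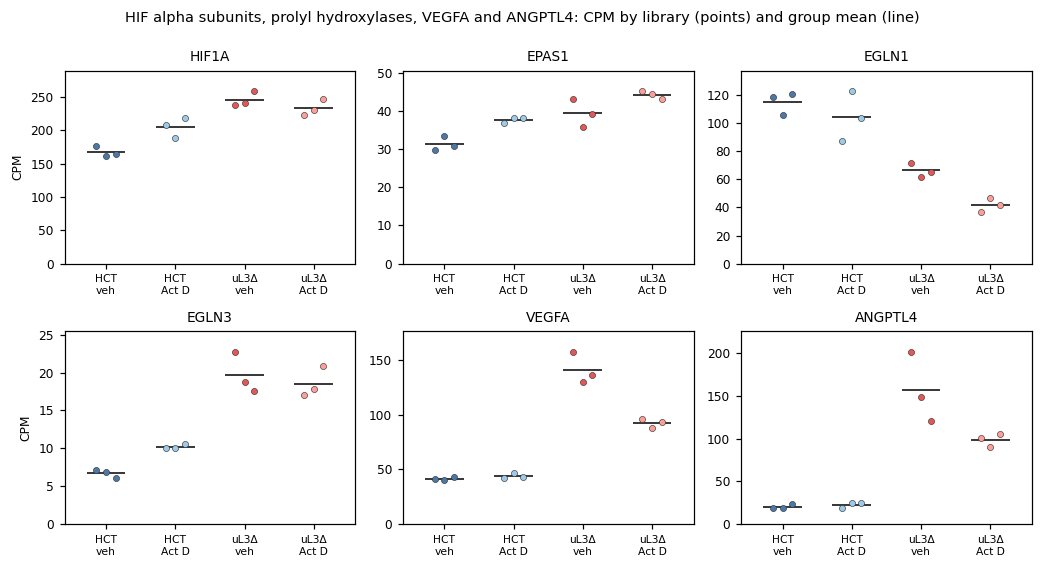
CPM of the HIF alpha subunits, the prolyl hydroxylases, VEGFA and ANGPTL4 in each library (points, from 0) with the group mean (line). VEGFA and ANGPTL4 fall with Act D in the uL3Δ-labelled libraries, to means of 92.3 and 98.7 CPM, and remain above the means of HCT 116p53-/- cells with Act D, 44 and 23.0 CPM.

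A difference between the responses of the lines was tested as the interaction of line and treatment. It passed for 3 of the 40 genes (7.5%, beside 6.53% of all genes), 0 higher (3.3%) and 3 lower (3.23%) in the uL3Δ-labelled libraries, with a median of -0.14 beside -0.01, and 9 genes had an unadjusted p under 0.05. VEGFA differed by -0.69 on the log2 scale (SE 0.12, edgeR adjusted p = 0.00312) and held under each of 19 alternatives. EGLN3 also differed by -0.69 (SE 0.19, edgeR adjusted p = 0.0348), and leaving out any of 8 libraries ended the call, namely replicates 2 or 3 of HCT 116p53-/- with vehicle, any replicate with Act D, and, of those labelled uL3Δ, replicate 1 with vehicle and replicates 1 or 2 with Act D (adjusted p up to 0.0917). It was also lost by library size alone, with the replicate block, and with the effective gene length as an offset, where it was -0.26 (adjusted p = 0.574). ANGPTL4 differed by -0.83 (SE 0.22, edgeR adjusted p = 0.0302), and leaving out any of 6 libraries ended the call, namely replicates 1 or 2 of HCT 116p53-/- with vehicle, replicates 2 or 3 with Act D, and replicates 1 or 2 of those labelled uL3Δ with Act D (adjusted p up to 0.0793), as did scaling by library size alone and the length offset. For EGLN1 the difference of -0.53 did not pass (SE 0.17, 95% interval -0.88 to -0.18, edgeR adjusted p = 0.0675), nor did that of HIF1A (-0.37, 95% interval -0.61 to -0.13, edgeR adjusted p = 0.0652). The line difference and the response to Act D share their libraries, so that high vehicle values in the uL3Δ-labelled libraries enter both for VEGFA, ANGPTL4 and EGLN3.

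Genes that stand beside the 40 in the same pathways were listed by name and counted in the same fit. Of 30 further hypoxia-inducible genes tested, 16 were higher, 6 lower and 8 not called in the uL3Δ-labelled libraries with vehicle (73.3% called, beside 71.3% of all genes). Of all genes 35.1% were higher and 36.2% lower. The median log2 fold change of the list was 0.46. The carbonic anhydrase CA12 was at 2.41 ± 0.573 CPM in HCT 116p53-/- cells (SD, n = 3) and at 139.6 ± 13.4 CPM in the uL3Δ-labelled libraries (log2 fold change 5.84, SE 0.13, edgeR adjusted p = 2.26e-16). BHLHE40, a transcriptional repressor, was higher by 2.16 (SE 0.08, edgeR adjusted p = 5.69e-14). Among the lower genes were NARF (-0.62, SE 0.09, adjusted p = 1.08e-05), PPP1R3B (-1.0, SE 0.17, adjusted p = 5.5e-05) and MXI1 (-0.85, SE 0.16, adjusted p = 9.24e-05, all from edgeR). With Act D 3 of these 30 genes rose and 2 fell in HCT 116p53-/- cells (16.7% called, beside 18.7% of all genes), and 0 rose and 4 fell in the uL3Δ-labelled libraries (13.3%, beside 11.9%). The histone demethylase KDM4B fell in both, by 1.46 (SE 0.15, edgeR adjusted p = 2.66e-06) and by 0.68 (SE 0.15, edgeR adjusted p = 0.00665).

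Of 13 other regulators of HIF tested, 3 were higher and 5 lower between the lines with Act D (61.5% called, beside 70.4% of all genes). With vehicle 6 were higher and 4 lower (76.9% called, beside 71.3% of all genes). ARNT2, a partner of the HIF alpha subunits, was at 8.99 ± 0.88 and 0.924 ± 0.537 CPM (SD, n = 3; log2 fold change -3.21, SE 0.36, edgeR adjusted p = 2.82e-07). ARNT, another partner and the more abundant, was higher, at 22.1 ± 0.644 and 31.0 ± 1.54 CPM (SD, n = 3; log2 fold change 0.48, SE 0.10, edgeR adjusted p = 0.000352). With Act D the difference of ARNT was 0.40 (SE 0.10, edgeR adjusted p = 0.00227). HIF1AN, the asparagine hydroxylase that keeps HIF from its coactivators, was at 101 ± 6.16 and 51.4 ± 9.21 CPM (SD, n = 3; log2 fold change -0.99, SE 0.12, edgeR adjusted p = 5.03e-07). CREBBP, a coactivator of HIF, was at 94.2 ± 12.4 and 52.3 ± 9.44 CPM (SD, n = 3; log2 fold change -0.86, SE 0.12, edgeR adjusted p = 4.07e-06), and CITED2, which competes with HIF for the coactivators, was higher by 1.24 (SE 0.11, edgeR adjusted p = 1.44e-08). Act D lowered CREBBP in both lines, by 0.46 (SE 0.12, edgeR adjusted p = 0.011) and by 0.95 (SE 0.13, edgeR adjusted p = 9.80e-05).

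Of 14 further glycolysis isozymes and transporters tested, 8 were higher and 4 lower between the lines with Act D (85.7% called, beside 70.4% of all genes). With vehicle 6 were higher and 6 lower (85.7% called, beside 71.3% of all genes). TIGAR, a phosphatase that lowers fructose 2,6-bisphosphate and is known as a p53 target, was lower in the uL3Δ-labelled libraries by 0.88 (SE 0.12, edgeR adjusted p = 3.10e-06). It rose with Act D in both of these p53-null lines, from 24.3 ± 2.24 to 52.2 ± 2.98 CPM in HCT 116p53-/- cells (SD, n = 3; log2 fold change 1.10, SE 0.11, edgeR adjusted p = 2.66e-06) and from 13.2 ± 1.94 to 20.2 ± 1.45 CPM in the uL3Δ-labelled libraries (SD, n = 3; log2 fold change 0.60, SE 0.12, edgeR adjusted p = 0.0033). In the pentose phosphate pathway 2 of 7 genes tested were higher and 1 lower with vehicle (42.9% called), and among 9 genes of gluconeogenesis and glycogen 4 were higher and 2 lower (66.7%), beside 71.3% of all genes. Between the lines with Act D the first list gave 2 higher and 1 lower (42.9%). The second gave 4 higher and 1 lower (55.6%), beside 70.4% of all genes. Act D changed at most 1 gene of each of the last 2 lists in either line.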

How the data were processed

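The authors trimmed the reads of paired-end TruSeq libraries, discarded those from ribosomal RNA and PhiX, and quantified genes on hg38 with RSEM 1.2.25. The deposited values used here were the RSEM expected counts, which are not normalized, and the TPM, which the authors' run of RSEM scaled to 1000000 per library. The deposited effective length (in bases) was used as an offset in an alternative, and the deposited posterior standard deviation of each count, a score of its certainty, to judge shared reads. For replicate 2 of HCT 116p53-/- with vehicle the values are per transcript and were summed per gene, and no posterior standard deviation was used. The strand setting of the counting is not given in the sources used here, so that reads of a gene and of an antisense partner cannot be told apart. The posterior standard deviation was under 2% of the count in every other library for 38 of the 40 genes.

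Expected counts were rounded, filtered with filterByExpr, scaled by TMM (factors 0.847 to 1.148) and fitted in 1 model over all 12 libraries with 1 term for each group (R 4.3.3, edgeR 4.0.16, common dispersion 0.0117). The lines, the treatments and their interaction were compared by quasi-likelihood tests in edgeR, adjusted after Benjamini-Hochberg over all 15692 genes tested, and "called" means an adjusted p under 0.05. CPM were computed with the same scaling, where 3 counts are 0.15 to 0.348 CPM. Intervals cover the spread between libraries. TPM were used for shares of an isozyme in its family, of which 16 were tested per comparison. They were also used, without a test, for the enzyme sums on another scale and for the means of single genes given in TPM. Names and positions came from GENCODE v44, in which 60261 of 60617 identifiers were found. The edgeR and DESeq2 fits were tried on simulated counts in which far fewer genes changed than differ between the lines here. That trial therefore says nothing on the choice of scaling between the lines, and it did not cover the permutation test or the promoter search.

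Values of each library are given for the HIF alpha subunits and prolyl hydroxylases, for isozymes described, and for up to 5 genes a direction in each comparison with the largest change among called genes whose groups do not overlap and with at least 5 CPM in a group. Further pathway genes were named by their p, up to 3 a direction in a list, of which 1 is not reported here. The 40 genes and all lists were chosen with earlier results of these data known. The alternatives were DESeq2 1.42.0, upper-quartile scaling, scaling by library size alone, a filter of 1 CPM in 3 libraries, no filter, a replicate block, fits of only the 2 groups compared, the effective length as an offset, a log2 fold change of at least 1, and each library left out in turn. Chosen after seeing the data were the test of the isozyme shares, the enzyme sums on other scales and the sums with pseudogenes.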

Additional observations from a re-analysis of the deposited data

Results flagged for a closer look

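The response to Act D differed between the lines for 3 of the 40 genes in the test of the interaction, and each was lower in the uL3Δ-labelled libraries than in HCT 116p53-/- cells: EGLN3 by a log2 difference of -0.69, VEGFA by -0.69 and ANGPTL4 by -0.83 (edgeR adjusted p = 0.0348, 0.00312 and 0.0302). For EGLN3 the difference combined a rise of 0.60 in HCT 116p53-/- cells with a change of -0.09 in the uL3Δ-labelled libraries. For VEGFA and ANGPTL4 it combined changes of 0.08 and 0.16 with falls of 0.61 and 0.67. Groups of 3 were not tested for outlying libraries.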

How the results depend on the processing

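Of the 35, 38, 7, 8 and 3 genes called for the line difference with vehicle, the line difference with Act D, Act D in HCT 116p53-/- cells, Act D in the uL3Δ-labelled libraries and the interaction, 29, 30, 1, 7 and 1 were called under every alternative fit. Leaving out each library in turn gave 34 to 35, 33 to 38, 3 to 10, 7 to 10 and 1 to 5 genes. For Act D in HCT 116p53-/- cells the low counts of 3 or 4 genes came without replicates 2 or 3 of its vehicle group or replicates 1 or 3 of its Act D group. For the interaction 1 gene was left without replicate 2 of HCT 116p53-/- with vehicle, replicates 2 or 3 with Act D or replicate 1 of the uL3Δ-labelled libraries with Act D, and 5 were called without replicate 3 of the last group. A log2 fold change of at least 1 left 14, 14, 0, 0 and 0. The calls for Act D in HCT 116p53-/- cells rose to 13 when only the 2 groups compared were fitted (24.7% of all genes). The interaction gave 6 genes with DESeq2 (7.56% of all genes), 1 by library size alone (4.82%) and 1 with the effective length as an offset (1.8%). The line difference with Act D turned to -0.06 for HIF1A, to -0.01 for EPAS1 and to -0.02 for LDHB by library size alone, and to just under 0 for BNIP3L with the length offset. EGLN3's response in the uL3Δ-labelled libraries turned to 0.02 without replicate 1 of the vehicle group (-0.20 to 0.02 over all left-out libraries), and the interaction of EPAS1 to 0.04 with the length offset. Searching ACGTG alone left 61.8% of members with a match. The cause was not tested, except that fewer libraries or letters are fewer by construction. Every isozyme difference, in counts per effective length or without 1 library, stayed within 1 SD of its value. Same-numbered replicates did not deviate together (correlations from -0.104 to 0.101), so that the numbers do not pair the libraries. With the replicate number as a block, 35, 34, 7, 7 and 2 genes were called. Depth limits BNIP3 and SLC2A3 most, which rest on 3 to 35 and on 16 to 34 counts per library in the uL3Δ-labelled libraries and in HCT 116p53-/- cells with vehicle.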
